A study of Ovis aries with 18 samples.

Results

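The genes described are 9 of the microRNA pathway: TARBP2, DICER1, PRKRA, DROSHA, DGCR8, XPO5, AGO1, AGO2 and AGO3. They were listed by name from the 20092 genes of the embryo count table. All 9 were among the 16488 genes tested, which had at least 15 counts in more than 3 pools. TARBP2 was chosen by its higher counts in methionine pools, so its diet difference is a description and carries no test. The counts came from sheep blastocysts, the labels naming inner cell mass and trophectoderm, in 12 pools of 5 embryos. The sires were Polypay rams. Control sires ate a basal diet, and methionine sires ate the same diet with a top-dress of 0.22% (1.5 g) rumen-protected methionine, a form that escapes breakdown in the rumen. The rams were fed these diets before puberty and mated after the supplement had ended. The 6 control pools came from Ram410, Ram423 and Ram444, with 2 pools each, and the 6 methionine pools came from Ram424 (4 pools), Ram498 (1 pool) and Ram511 (1 pool). Since pools from 1 ram have the same sire, and may have the same dam, they are not independent, and the p-values measure the spread between pools.

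MicroRNAs are short RNAs that lower the stability and translation of messenger RNAs. In the nucleus, the Microprocessor, built of the nuclease DROSHA and its RNA-binding partner DGCR8, cuts a hairpin from the primary transcript. XPO5 carries the hairpin to the cytoplasm, where the nuclease DICER1, bound by TARBP2 or PRKRA, trims it to a duplex. A strand of the duplex is then loaded into an Argonaute protein (AGO1 to AGO4), the core of the silencing complex. In mammals, DICER1 and AGO2 are needed for development, and oocytes and early embryos also hold other classes of small RNA. Only transcripts of the machinery were measured, not the small RNAs themselves.

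Total counts were 1017847 to 2398589 per pool, from RNA that had been amplified as a whole transcriptome without molecular identifiers. Depth was uneven between diets. Control pools were at 1173289 to 1554651, and Embryo424_1, Embryo424_2 and Embryo424_4, all of Ram424, at 2013151 to 2398589. The other methionine pools were at 1017847 to 1560224. Pools Embryo444_2 (control) and Embryo511_1 (methionine) stood apart. Their median Spearman correlation with the other pools was 0.582 and 0.5996, against 0.820 to 0.857 in the other 10. Both were low in most trophectoderm markers and in POU5F1, a pluripotency factor of the inner cell mass. The trophectoderm markers found in the table, 7 of 9 listed, summed to 224 CPM (counts scaled to the effective library size of a pool) in Embryo444_2 and 194 CPM in Embryo511_1, against 5252 to 14350 CPM in the other 10 pools, with ELF5 alone within the range of those 10. POU5F1 was at 14.2 and 39.7 CPM against 132 to 521 CPM, while the other 3 inner cell mass markers in the table (NANOG, KLF17 and TDGF1; 4 of 7 listed) lay within the range of the other 10 pools. Of the hypoblast markers, GATA6 was at 38.9 and 66.4 CPM against 249 to 801 CPM, while GATA4 and PDGFRA were not low and SOX17 had 8 counts at most. No marker of these lists was at 0 in every pool. Pool Embryo511_1 also held 732 CPM over 5 of 8 oocyte markers (94.2 to 162 CPM elsewhere), including ZP3 at 410 CPM, and 1008 CPM of the sperm gene TNP1 (1.20 to 15.6 CPM elsewhere), while the other 2 sperm genes in the table, ODF1 and AKAP4, lay within the range of the other pools. Of the uterine epithelium and cumulus markers in the table, FOXA2, MUC1, TNFAIP6 and HAS2 were higher in Embryo444_2 than in the other 10 pools. PGR, ESR1 and FOXL2 were not. FOXA2 and TNFAIP6 were also above those 10 in Embryo511_1. The leukocyte marker PTPRC was at 121 CPM in Embryo444_2 and 254 CPM in Embryo511_1, against 40.2 to 76.5 CPM. CD68 and ALAS2, of the same list, were below the other 10 in both. The origin of these transcripts was not tested. The diet differences of the 9 genes, and of the other genes named, are therefore given with and without these pools. In bulk RNA, fewer cells of a type and less RNA per cell cannot be told apart.

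TARBP2, the double-stranded RNA-binding partner of DICER1 that stabilizes it and aids the handover of the duplex to Argonaute, was higher in the methionine pools. In control pools it was at 21.1 and 26.9 CPM (Ram410), 37.9 and 22.5 CPM (Ram423) and 23.4 and 11.3 CPM (Ram444, pools Embryo444_1 and Embryo444_2). In methionine pools it was at 63.1, 82.1, 59.3 and 40.3 CPM (Ram424), 45.8 CPM (Ram498) and 65.4 CPM (Ram511). The lowest methionine pool lay above the highest control pool, so the groups did not overlap. The means were 23.8 ± 8.63 CPM in control and 59.3 ± 14.9 CPM in methionine pools (SD, n = 6 each), and the fitted difference was 1.31 on the log2 scale (SE 0.29), or 2.48-fold. Of all 16488 genes, 26 (0.158%) had methionine pools wholly above control pools and 32 (0.194%) wholly below. TARBP2 is 1 of those 26 by the way it was picked, and none of the other 8 genes was in either set.

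The separation of the TARBP2 levels was narrow. The closest pools were Embryo423_1 (53 counts, 37.9 CPM, 95% Poisson interval 28.4 to 49.5) and Embryo424_4 (82 counts, 40.3 CPM, interval 32.1 to 50.03), and these intervals, which cover counting error only, overlapped. The gap between them was 1.06-fold, and 1.17-fold with library size alone as the scaling. TARBP2 had between 16 counts, in Embryo444_2, and 145 counts, in Embryo424_2, so counting alone gives a coefficient of variation of 25% in the shallowest case and 8.30% in the deepest. Each pool had counts for 18934 to 19575 of the 20092 genes. Without the pools that stand apart, the listed markers ESR1 (24.1 to 63.8 CPM) and AKAP4 (14.3 to 83.7 CPM) lay at levels like TARBP2, while FOXA2 (0.71 to 9.21 CPM) lay lower. Background reads in the TARBP2 and PRKRA counts were not tested. By ram, the mean level ran, from high to low, in the order Ram511 (65.4 CPM), Ram424 (61.2), Ram498 (45.8), Ram423 (30.2), Ram410 (24.0) and Ram444 (17.4). Ram511 and Ram498 lay within the range of the 4 pools of Ram424, and the ranges of neighbouring control rams overlapped, so within a diet this order is not separated by the spread between pools. Without pools Embryo444_2 and Embryo511_1 the difference was 1.13 (SE 0.26), from 26.3 ± 6.79 to 58.1 ± 16.4 CPM (SD, n = 5 each), and the lowest control pool was then Embryo410_1 at 21.1 CPM. With the ram as a random effect it was 1.32, with the pools of each ram summed 1.30, and over 27 alternative fits it ranged from 1.13 to 1.51. Pools Embryo424_1 and Embryo424_2 were the most alike, with a Spearman correlation of 0.955. Taken as 1 pool, a setting chosen after seeing the data, they gave a TARBP2 difference of 1.24. These fits reuse the counts by which TARBP2 was picked, so they are no independent check of the difference.

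**Figure D1:**
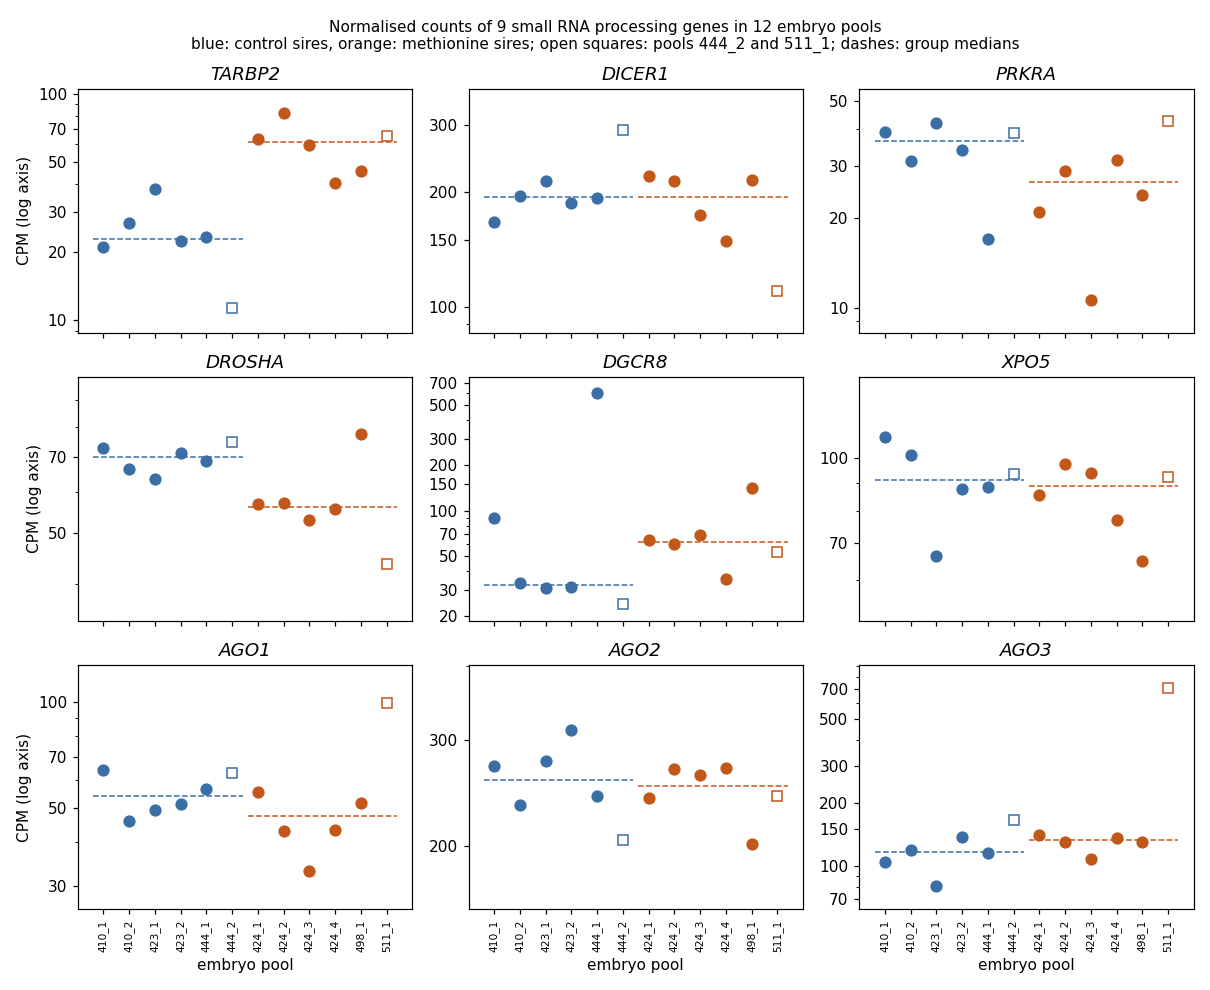
Normalised counts (CPM, log axis, a separate scale for each gene) of the 9 genes in each embryo pool, with control sires in blue, methionine sires in orange, pools Embryo444_2 and Embryo511_1 as open squares and group medians as dashes. TARBP2 is the panel without overlap between diets (37.9 CPM at most in control, 40.3 CPM at least in methionine), while DGCR8 has a control pool at 600.3 CPM and AGO3 a methionine pool at 706 CPM.

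The other 8 genes were tested in the edgeR quasi-likelihood fit over all genes. None passed a Benjamini-Hochberg false discovery rate (FDR) of 0.05, and none had an unadjusted p under 0.05. The background was 0 of 16488 genes called (0%) and 1306 genes (7.92%) at an unadjusted p under 0.05, where the likelihood-ratio test called 5 genes and DESeq2 16 genes. None of the 8 was among the former and none of 6 among the latter, since DESeq2 gave no p for DGCR8 and AGO3. Since the smallest FDR of any gene was 0.584, a count of 0 among the members is no more than the background gives. The levels below are compared within a gene only, since no transcript lengths were used.

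PRKRA (also called PACT), the paralog of TARBP2 that can take its place on DICER1, did not differ beyond the spread between pools. It was at 17.0, 36.5 and 42.1 CPM in control pools (lowest, median and highest) and at 10.6, 26.5 and 42.6 CPM in methionine pools. The control range lay within the methionine range, and the low values were those of Embryo444_1 and Embryo424_3. The difference was -0.36 (SE 0.32, 95% interval -1.04 to 0.32, edgeR quasi-likelihood FDR 0.793), and -0.49 without the 2 pools that stand apart. It was -0.20 without Embryo424_3, the lowest pool, and -0.02 without the 4 pools of Ram424. PRKRA had only 15 to 64 counts per pool, which limits the precision of each value.

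The ratio of TARBP2 to PRKRA counts, which does not depend on the scaling of a pool, ranged from 0.291 to 1.38 in control pools and from 1.28 to 5.60 in methionine pools. Since no transcript lengths were used, a ratio of 1 does not mean equal levels, and the ratio serves only to compare pools. The share of other gene pairs with such ratios was not counted. Pool Embryo444_1, a control, reached 1.38 with the lowest PRKRA count of its group (24) and lay above the methionine pool Embryo424_4 at 1.28, so the ratio, unlike the level of TARBP2, overlapped between diets. Its numerator was picked for this contrast, and the ratio is not tested.

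DICER1, the nuclease to which both proteins bind, was at 167, 194 and 290 CPM in control pools (lowest, median and highest) and at 110, 194 and 220 CPM in methionine pools. The medians were level, and both extremes came from the pools that stand apart, with 290 CPM in Embryo444_2 and 110 CPM in Embryo511_1. The difference was -0.20 (SE 0.26, 95% interval -0.76 to 0.35, edgeR quasi-likelihood FDR 0.860) in all pools and 0.015 (SE 0.19, FDR 0.985) in the other 10. With 111 to 460 counts per pool, DICER1 was counted more deeply than either partner.

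DROSHA, the nuclease of the Microprocessor, was even among control pools, at 63.6, 70.03 and 75.0 CPM (lowest, median and highest). In methionine pools it was at 43.6, 56.2 and 77.7 CPM. Of the 6 methionine pools, 5 lay below every control pool, at 43.6 to 57.2 CPM, while pool Embryo498_1 lay above every one of them. Of those 5, 4 had the same sire, Ram424 (52.9 to 57.2 CPM), and the other was Embryo511_1, a pool that stands apart. By ram, the methionine sires thus lay on both sides of the control range. The share of all genes with such a pattern was not counted. The difference was -0.28 (SE 0.20, 95% interval -0.70 to 0.14), with an edgeR quasi-likelihood FDR of 0.741, and -0.20 in the 10 pools. It kept this sign in all 27 alternative fits (-0.39 to -0.19), none of which gave a call. Its biological coefficient of variation, the spread beyond counting error, was 0.262, at the 0.127th percentile of all genes tested, and that of XPO5 was 0.271, at the 0.516th percentile.

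DGCR8, the RNA-binding partner of DROSHA, whose own messenger RNA carries hairpins that the Microprocessor can cut, was dominated by a single pool. Control pools were at 24.1, 32.4 and 600.3 CPM (lowest, median and highest) and methionine pools at 35.4, 62.0 and 141 CPM. Pool Embryo444_1 held 846 counts of DGCR8, and the next control pool was Embryo410_1 at 89.5 CPM, while the other 4 lay between 24.1 and 33.3 CPM. The methionine median was the higher, whereas the fitted difference was -0.93 (SE 0.71, 95% interval -2.43 to 0.56, edgeR quasi-likelihood FDR 0.749). Without Embryo444_1 it was 0.76, and with all pools and the ram as a random effect it was 0.23, so its sign turned both on this pool and on the model. Without both pools that stand apart, which do not include Embryo444_1, it stayed at -1.09. Pool Embryo444_1 had a Spearman correlation with the other pools of 0.822, within the range of the 10 pools that resembled each other.

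XPO5, the exporter of precursor hairpins, was at 66.4, 91.1 and 109 CPM in control pools and at 65.0, 88.9 and 97.4 CPM in methionine pools (lowest, median and highest). The groups spanned nearly the same range. The difference was -0.10 (SE 0.20, 95% interval -0.53 to 0.33, edgeR quasi-likelihood FDR 0.920), and -0.12 in the 10 pools. Pools Embryo444_2 and Embryo511_1, at 93.4 and 92.2 CPM, sat in the middle of that range.

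AGO2, the Argonaute that can itself cut a matched target, was at 205, 257 and 312 CPM in control pools and at 202, 252 and 270 CPM in methionine pools. The difference was -0.05 (SE 0.25, 95% interval -0.58 to 0.47, edgeR quasi-likelihood FDR 0.970), and -0.11 in the 10 pools. Its highest pool exceeded its lowest by 1.55-fold, the narrowest range of the 9 genes. AGO1 was at 46.0, 54.0 and 64.0 CPM in control and at 33.2, 47.5 and 99.1 CPM in methionine pools, where the highest value was that of Embryo511_1 and the other 5 reached 55.4 CPM at most. Its difference was -0.03 (SE 0.26, 95% interval -0.58 to 0.53, edgeR quasi-likelihood FDR 0.986) in all pools and -0.24 (SE 0.21) in the 10 pools.

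AGO3 had the largest positive difference after TARBP2, and it came from 1 pool. It was at 80.7, 118 and 167 CPM in control pools and at 109, 134 and 706 CPM in methionine pools (lowest, median and highest). Pool Embryo511_1 held the 706 CPM, while the other 5 methionine pools lay at 109 to 141 CPM, within the control range. The difference was 0.89 (SE 0.44, 95% interval -0.04 to 1.83, edgeR quasi-likelihood FDR 0.652), and 0.10 (FDR 0.873) without Embryo511_1. In that pool, the trophectoderm and oocyte sums given above were also far from the others, and their part in the AGO3 level was not tested.

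The Argonautes did not all share this excess in Embryo511_1. Relative to its own median over the 12 pools, AGO3 stood at 5.39 there and AGO1 at 1.92, while AGO2 stood at 0.959. AGO4, which is outside the 9 genes and was at 74.5 to 115 CPM in control pools, was at 37.7 CPM in Embryo511_1, or 0.427 of its median. Its diet difference was -0.19 (SE 0.25, edgeR quasi-likelihood FDR 0.864), and 0.03 (SE 0.19) in the 10 pools. In Embryo444_2, the other pool that stands apart, AGO3 was at 167 CPM, its highest control value. Reads shared between these paralogs were not assessed.

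**Figure D2:**
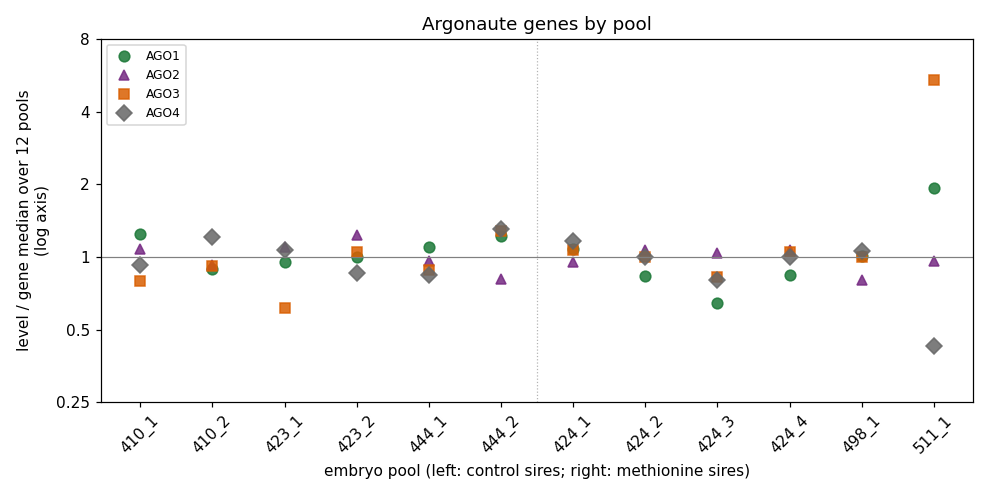
Level of each Argonaute gene in each embryo pool divided by that gene's median over the 12 pools (log axis; control sires left of the dotted line, methionine sires right). In pool Embryo511_1 AGO3 stands at 5.39 and AGO1 at 1.92, AGO2 at 0.959 and AGO4 at 0.427 of their medians.

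**Figure D3:**
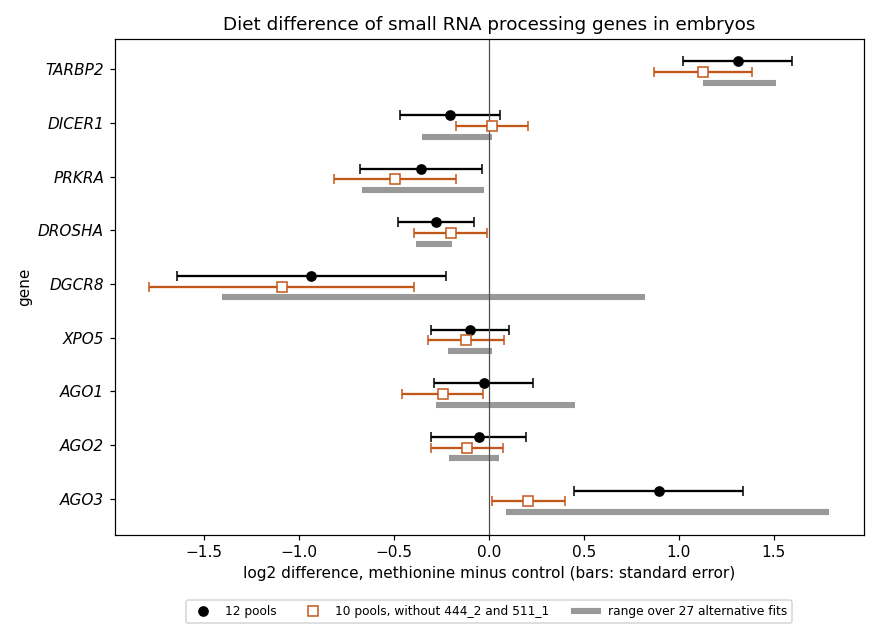
Diet difference (log2, methionine minus control) of the 9 genes with its standard error in all 12 pools (black points) and in the 10 pools without Embryo444_2 and Embryo511_1 (open orange squares), and the range over 27 alternative fits (grey bars). TARBP2 ranges from 1.13 to 1.51, the DGCR8 bar runs from -1.41 to 0.82 across 0, and the AGO3 bar from 0.09 to 1.79.

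Across pools, the members did not move as a unit. On log2 CPM over the 12 pools, TARBP2 had its strongest relation with DROSHA (Pearson's r -0.73, Spearman's rho -0.70), against -0.39 with DICER1 and -0.31 with PRKRA (r). With the diet means removed, DROSHA was no longer first. Its coefficient was then -0.45, and that of AGO2, which was 0.14 before, was 0.48. In the 10 pools without Embryo444_2 and Embryo511_1 the coefficient was -0.68 with DROSHA and -0.21 with AGO2. The relation of TARBP2 with DICER1 turned to 0.37 without the 2 pools. DICER1 and DROSHA had r = 0.67, which was 0.18 in the 10 pools. AGO1 and AGO3 had r = 0.74 but rho = 0.33, the former resting on Embryo511_1. These coefficients describe 12 pools that share sires and, within a pool, a library and its scaling, and those with TARBP2 also share the contrast by which it was picked.

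The genes whose pattern over the 12 pools was most like that of TARBP2, by Pearson's r of log2 CPM among all genes tested, were PRMT5 (0.95), FAM76B (0.94), GFM1 (0.92), TAF4 (0.91) and GPN2 (0.89). PRMT5, an enzyme that methylates arginine residues with S-adenosylmethionine as donor, was at 41.1 to 102 CPM in control and 81.3 to 141 CPM in methionine pools. Its lowest control pool was Embryo444_2 and its highest Embryo423_1, as for TARBP2. With the diet means removed the coefficient was still 0.95, and in the 10 pools it was 0.92. FAM76B was at 9.20 to 22.9 CPM in control and 24.0 to 38.5 CPM in methionine pools, without overlap, at 13 to 68 counts. GFM1, a mitochondrial translation elongation factor, had a coefficient of 0.79 with the diet means removed, TAF4, a subunit of the general transcription factor TFIID, had 0.75, and GPN2 had 0.83. Such a likeness is the extreme of 16488 genes and includes the diet contrast that chose TARBP2.

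**Figure D4:**
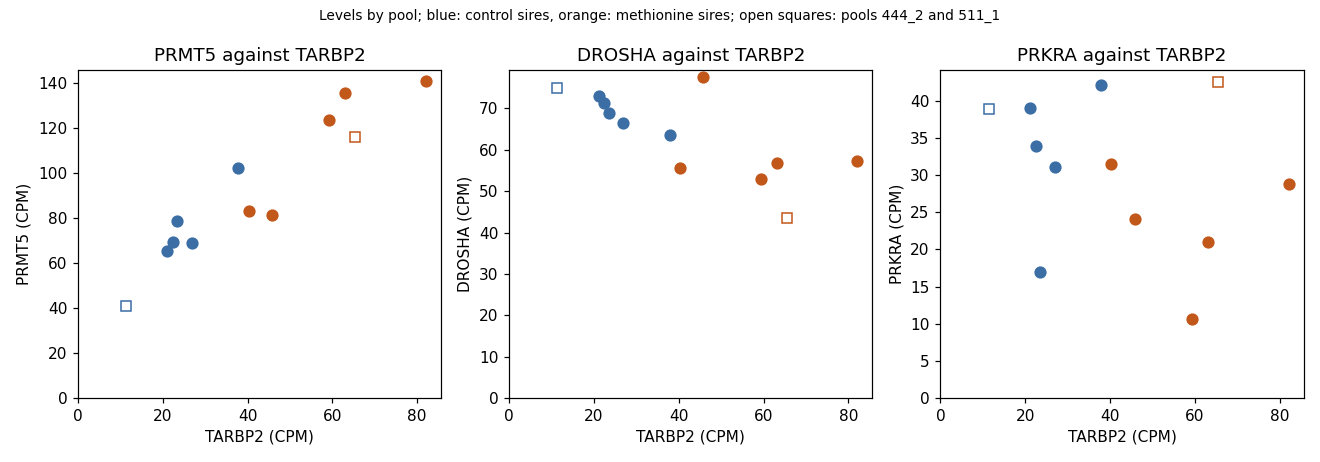
Levels (CPM) of PRMT5, DROSHA and PRKRA against TARBP2 in the 12 embryo pools, with control sires in blue, methionine sires in orange and pools Embryo444_2 and Embryo511_1 as open squares. PRMT5 increases with TARBP2 in both groups. DROSHA lies lower in 5 of 6 methionine pools, of which 4 came from Ram424 and the other is Embryo511_1. PRKRA spreads from 10.6 to 42.6 CPM with both high and low values in either group.

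The genes next to TARBP2 were looked up in RefSeq's annotation of ARS-UI_Ramb_v3.0, a later assembly than the Oar_rambouillet_v1.0 of the files, used only for the order of genes. No annotated gene overlapped TARBP2 there. NPFF, a neuropeptide precursor on one side, was at 21.9 to 30.9 CPM in control and 10.3 to 39.7 CPM in methionine pools (difference 0.20, SE 0.31, edgeR quasi-likelihood FDR 0.879). MAP3K12, a kinase on the other side, was at 18.1 to 66.0 and 34.9 to 70.4 CPM (0.21, SE 0.30, FDR 0.869). The groups overlapped for both, although 4 of 6 methionine pools lay outside the narrow control range of NPFF. Without Embryo444_2 and Embryo511_1 the differences were 0.05 (SE 0.31) and 0.0038 (SE 0.29). Whether strand was used in the counting is not given in the sources used here.

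The wider pathway was read from 7 lists of 96 gene symbols, some of them older names of a gene also listed under its current name. Of these symbols, 87 were in the table and all 87 were tested. None was called by the edgeR quasi-likelihood test at an FDR of 0.05. At an unadjusted p under 0.05 there were 4 (4.6%, against 7.92% of all genes), of which SRRT, ILF2 and ZFR were higher and ADARB1 lower in methionine pools. The fitted difference was positive in 62 of 87 (71.3%, against 50.5% of all genes) and its median was 0.12, against 0.01 over all genes. In the 10 pools it was positive in 65 (74.7%, against 47% of all genes), and 10 genes (11.5%, against 11.9% of all genes) had an unadjusted p under 0.05. Pool Embryo444_2 was the lowest control pool for 44 of the 87 (50.6%, against 29.4% of all genes). The 87 genes were measured in the same pools from few sires, so their signs are not independent observations. The share of positive differences was not tested.

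Among 14 Microprocessor partners, 11 differences were positive (median 0.13), and in the 10 pools 12 (median 0.36). The largest was that of SRRT (ARS2), which links the cap-binding complex to the processing of primary microRNAs, with 34.7 to 169 CPM in control and 98.1 to 247 CPM in methionine pools, a difference of 0.78 (SE 0.35, edgeR quasi-likelihood FDR 0.615). Its lowest control value came from Embryo444_2, and in the 10 pools the difference was 0.72 (FDR 0.326). Among 5 genes of nuclear export, 4 were positive (median 0.21), led by RANGAP1, which stimulates GTP hydrolysis by Ran, at 0.46 (edgeR quasi-likelihood FDR 0.663), or 0.39 in the 10 pools.

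TARBP2 and PRKRA belong to a broader class of proteins that bind double-stranded RNA, and 10 others of that class were tested. Of these, 7 had positive differences (median 0.26). ILF2, a subunit of nuclear RNA-binding complexes, was at 21.2 to 103 CPM in control and 64.4 to 177 CPM in methionine pools (0.73, SE 0.34, edgeR quasi-likelihood FDR 0.619). ZFR, a zinc finger RNA-binding protein, had 0.60 (SE 0.27, FDR 0.615), and ADARB1, an adenosine deaminase that edits double-stranded RNA, had -0.54 (SE 0.23, FDR 0.607). EIF2AK2 (PKR), the kinase that TARBP2 inhibits and PRKRA activates, was at 18.1 to 36.1 CPM in control and 28.3 to 54.5 CPM in methionine pools (0.39, SE 0.25, FDR 0.718). All of them overlapped between diets. In the 10 pools the differences were 0.58 for ILF2, 0.63 for ZFR, -0.42 for ADARB1 and 0.33 for EIF2AK2, and the list had 6 positive differences (median 0.12).

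The remaining lists gave the same count of 0 calls. Of 10 chaperones that load Argonaute, 8 were positive (median 0.22), and the largest difference was FKBP4, a co-chaperone of HSP90, at -1.16 (SE 0.55, edgeR quasi-likelihood FDR 0.631), with 304 CPM in pool Embryo423_1, and -1.66 (SE 0.49, FDR 0.262) in the 10 pools. Of 27 silencing effectors, among them the GW182 proteins and the deadenylase and decapping complexes, 21 were positive (median 0.12). The largest was PABPC1, the cytoplasmic poly(A)-binding protein, with 65.8 to 698 CPM in control and 145 to 2726 CPM in methionine pools (1.30, SE 0.67, FDR 0.663), and 1.29 (SE 0.37, FDR 0.259) in the 10 pools. Of 11 genes of microRNA tailing and decay, 6 were positive (median 0.09), led by TSN, a component of the nuclease C3PO, at 0.49 (FDR 0.763), or 0.56 in the 10 pools. Of 10 genes of the PIWI pathway, which guards germ cells against transposons, 5 were positive and 5 negative (median 0.01), and the largest was PLD6, a mitochondrial nuclease, at -0.99 (FDR 0.721), or -1.41 (FDR 0.387) in the 10 pools.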

How the data were processed

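RNA was sequenced from 12 pools of embryos, grouped by the diet of the sire in the labels. After trimming, the authors aligned reads with STAR to Oar_rambouillet_v1.0, and the raw counts per gene and pool were deposited, with no molecular identifiers. Every column matched a pool.

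The filter rule was that of the study (a minimum of 15 counts in over 3 pools) and scaling was by TMM. Here the rule left 16488 genes, fewer than the study reports, and the reason was not found. Diet was tested in edgeR 4.0.16 (R 4.3.3) by the two-sided quasi-likelihood test, with Benjamini-Hochberg FDR over all 16488 genes. CPM are counts scaled to the effective library size. The study used a likelihood-ratio test, which was tried as an alternative along with DESeq2 1.42.0, other scalings and filters, sums over the pools of each ram, a random effect of ram (limma 3.58.1) and pools or rams left out. Standard errors were derived from the F statistic, and intervals from its t quantile. On simulated counts for the same comparison and 16488 genes, the test recovered 8% of 2-fold and 85% of 4-fold changes, with 3 false calls. The simulated pools were independent, with no effect of the ram and no pools that stand apart, so these shares need not hold for the data.

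The members and lists were chosen with earlier results of these data known. Named genes were the members, the gene of largest difference in each list, the 5 genes most like TARBP2 and its neighbours. ZFR, ADARB1, EIF2AK2 and AGO4 were named after their values were seen. RefSeq matched 8 of 9 members by symbol, not AGO1. Sperm methylation was not used here.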

Additional observations from a re-analysis of the deposited data

Results flagged for a closer look

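In each diet group, a value was singled out where the gap between the highest or lowest pool and its nearest neighbour exceeded Dixon's 95% critical value for 6 pools as a share of the range. DGCR8 was singled out in both groups, in control pool Embryo444_1 at 600.3 CPM (next pool 89.5 CPM) and in methionine pool Embryo498_1 at 141 CPM (next pool 69.2 CPM). In methionine pool Embryo511_1, AGO3 was singled out at 706 CPM (next pool 141 CPM) and AGO1 at 99.1 CPM (next pool 55.4 CPM). These were 4 of 18 groups (22.2%), and over all genes tested 5517 of 32976 groups (16.7%) were singled out. The critical value gives about 1 in 20 for normally distributed values only. It was applied here to CPM without logarithms, so the share over all genes is the background. Pool Embryo511_1 held the high value for 2137 genes (13%), against 269 genes (1.63%) in Embryo444_1 and 264 genes (1.6%) in Embryo498_1. No value of TARBP2, DICER1, PRKRA, DROSHA, XPO5 or AGO2 was singled out.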

How the results depend on the processing

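None of the 8 tested members and no pathway gene passed an FDR of 0.05 in any alternative that tested it (27 distinct fits). DESeq2 gave no p for DGCR8 and AGO3, and the filter at 50 counts left out 4 of 87 pathway genes. Over all genes, the count of calls was 0, against 5 by the likelihood-ratio test, 16 by DESeq2 and 1 (MROH5) without pools Embryo444_2 and Embryo511_1. PRKRA, DROSHA and AGO3 kept their sign in every alternative. TARBP2 did too, but it was picked for this difference in these pools, so its sign is no check. DICER1 turned to 0.015 without pools Embryo444_2 and Embryo511_1. AGO1 turned to 0.27 with pools of a ram summed and to 0.00088 with the 2 most alike pools, Embryo424_1 and Embryo424_2, taken as 1 pool. DGCR8 turned to 0.23 with the ram as a random effect and to 0.82 without Embryo444_1 and Embryo511_1. The last 2 sets of pools were chosen after seeing the data. Leaving out pools or rams moved DGCR8 from -1.41 to 0.76, XPO5 from -0.21 to 0.018, AGO1 from -0.28 to 0.45 and AGO2 from -0.21 to 0.053. For DGCR8 the positive values came without Embryo444_1 or without Ram444. PRKRA moved from -0.53 to -0.02, the latter without Ram424. Without both Embryo444_1 and Embryo511_1 PRKRA was at -0.67 (edgeR quasi-likelihood unadjusted p 0.039, FDR 0.441). AGO3 ranged from 0.10 without Embryo511_1 to 1.79 without Ram424 (FDR 0.287). The causes of the other changes were not tested. With library size alone as the scaling, the median of all genes shifted to -0.09. No paired analysis was possible because the labels number pools by ram and no number occurs in both diets. Pools from the same ram had a consensus correlation of 0.263. Counts of 15 to 145 per pool limit PRKRA and TARBP2. The planned test of sperm methylation near the members was not run, since no annotation of the build was used here.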
